A study of Mus musculus with 22 samples.

Results

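Hes1, Hes5, Hey1, Hey2, Heyl, Nrarp and Dtx1 are 7 genes known as direct or common targets of Notch signaling. They were chosen by gene symbol, from the 20396 genes present in both the Ribo-Seq and the RNA-Seq tables of cultured mouse cortical neural stem cells (NSCs), and joined across assays by Ensembl ID. All 7 were found, in a study of what the RNA binding proteins Musashi-1 and Musashi-2 (Msi1 and Msi2) do to mRNA levels and translation. RNA-Seq gave 14 libraries of 13 conditions, and Ribo-Seq, which sequences the mRNA fragments covered by ribosomes (footprints), gave 8 libraries.

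The KH2, MSI1 and MSI2 lines are called tet-inducible lines here. All of them carry m2rTTA, a Dox-dependent transcription factor, knocked into the ubiquitously active Rosa26 (R26) locus. MSI1 and MSI2 also carry an Msi1 or Msi2 cDNA in the Col1A1 locus, which Dox switches on, and KH2 carries neither. The cells came from the cortex of E12.5 embryos of the 129SvJae strain, littermates where possible, and grown without Dox or with 1 µg/ml Dox, with a time point of 72 h. KH2 cells without Dox and MSI1 cells without and with Dox were also sequenced from E13.5 embryos, by RNA-Seq only. The C1 and C4 lines, called floxed lines here, have loxP-flanked alleles of both Msi1 and Msi2. C4 carries CreER, a Cre recombinase switched on by Tamoxifen (4-OHT), and C1 lacks it. They came from E12.5 embryos and were sampled without and with 4-OHT at 48 h. Ribo-Seq covered KH2, MSI1, C1 and C4 at E12.5. C1 served as the control for 4-OHT, whose dose is not given in the sources used here, and KH2 as the control for Dox. Each condition has 1 library, apart from technical repeats of untreated MSI1 cells at E13.5, and how many embryos went into a line is not given.

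Notch is a cell surface receptor. When a Delta or Jagged ligand on a neighboring cell binds it, its intracellular domain is cut free, enters the nucleus and joins the DNA binding protein Rbpj and a Maml coactivator to switch on target genes. In the embryonic cortex, Hes1 and Hes5 are the best known of these targets. They encode transcriptional repressors that hold back proneural genes such as Neurog2, and so keep cells in the progenitor state. Hey1, Hey2 and Heyl encode related repressors. Nrarp encodes a small ankyrin repeat protein that binds the Notch complex and limits its activity, and Dtx1 encodes Deltex, a ubiquitin ligase that acts on Notch itself.

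Rbpj recognizes a core of TGGGAA, which in its longer form reads GTGGGAA. The letters were looked for on both strands of the RefSeq promoters of GRCm38.p6, from 250 bases before to 50 after the start of each gene. Promoters were matched for 4 of the 7 genes (Hes5, Hey2, Nrarp and Dtx1), and those of Hes1, Hey1 and Heyl were not analyzed here. GTGGGAA is shown because it separated Hes5 and Hey2, with 2 matches each, from Nrarp and Dtx1, with 0. Of 32851 promoters, 6.38% held it at least once. The capitals mark the motif, as GTGGGAA where it lies on the gene's own strand and as TTCCCAC where it lies on the other strand. The sequences below lie at chr4:154960829-154960857 and chr4:154960686-154960714 (both Hes5, plus strand) and at chr10:30842770-30842798 and chr10:30842973-30843001 (both Hey2, minus strand), and each is written along the gene's strand.
Hes5 at -83: ggccgccgagtGTGGGAAcggccgcggcg
Hes5 at -226: gggcgagcgcgTTCCCACagcccggacat
Hey2 at -4: tgggctgcagcGTGGGAAagaacctccag
Hey2 at -207: gcgcggtggcaTTCCCACgcctctgccaa
The shorter TGGGAA, which overlaps each of these matches, was present in 25.6% of promoters and likewise absent from the Nrarp and Dtx1 windows. A match of letters is not a measured binding site, and a window without one says nothing of binding elsewhere. The bases CACNAG, in which N stands for any base and which Hes proteins are known to bind, matched 2 times in the Nrarp window, 1 time in Dtx1 and 0 times in Hes5 and Hey2, against 42.5% of all promoters with a match.

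Msi proteins bind UAG-containing sequences in 3′ UTRs, so the UTRs of the 7 mRNAs were searched as well (GENCODE annotation of mm9). UAG occurred 5.74 (Dtx1) to 11.5 (Hey1) times per kb, against a median of 11.1 over 17734 genes, and Hey1 was the single one of the 7 above that median. The 5mers GUAGU and AUAGU were absent from the Hes1 and Hes5 UTRs. They were found 3 times each in Hey2, Heyl and Nrarp, 2 times in Hey1 and 1 time in Dtx1, and 59.2% of genes had at least 1. A site is shown for Nrarp and for Dtx1, the genes whose mRNA differed most between Msi1-induced and uninduced cells below, with the 5mer in capitals. The first lies at chr2:25037913-25037937 (plus strand) and the second at chr5:121130815-121130839 (minus strand). The Nrarp stretch also holds another of its AUAGU sites, left in lower case. That site starts at position 941 of the UTR, and the one in capitals at 948.
Nrarp: auuauaguuaAUAGUcgguugcaca
Dtx1: caagcacgggAUAGUgggggggacu

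In mm9, Hes1 (ENSMUSG00000022528) lies on chr16:30064470-30067882, Hes5 (ENSMUSG00000048001) on chr4:154335032-154336480, Heyl (ENSMUSG00000032744) on chr4:122910799-122927118 and Nrarp (ENSMUSG00000078202) on chr2:25036278-25038850, all on the plus strand. Hey1 (ENSMUSG00000040289) lies on chr3:8663362-8667039, Hey2 (ENSMUSG00000019789) on chr10:30552165-30562607 and Dtx1 (ENSMUSG00000029603) on chr5:121130211-121161936, all on the minus strand. Nrarp has 1 coding exon and Dtx1 has 9, and reads of both assays were counted over coding exons only. A processed transcript on the opposite strand, RP24-89N4.5, overlaps the coding exons of Hes5. Whether counting used strand is not given in the sources used here, so reads of Hes5 and of this transcript cannot be told apart.

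Libraries held 7889966 to 58435172 counts in RNA-Seq and 657288 to 6381242 in Ribo-Seq, so footprint values of these genes rest on few reads. In untreated KH2 cells 66.7% of all footprint reads fell on Hes7, against 17.9% on the leading gene of KH2 cells with Dox and at most 11.1% in the others. Hes7 had 2314436 footprint reads but 15 mRNA reads in untreated KH2 cells, and 0 footprint reads in KH2 cells with Dox. Its footprint count therefore cannot be read as translation of Hes7, and the cause was not tested. Deposited RPKM values of the median gene were 1.89- to 2.07-fold higher at E13.5 or in C1 and C4 than in untreated E12.5 cells of the same line (for stage) or of KH2 (for C1 and C4). Levels are therefore given here as normalized RPKM, the RPKM computed from counts with library sizes scaled by TMM, which brought these medians to between 0.007 and 0.041 on the log2 scale. With Dox, Msi1 mRNA of MSI1 cells went from 129 to 701 normalized RPKM at E12.5, and at the later stage from 182 to 699. Msi2 mRNA went from 153 to 824 with Dox in MSI2 cells and from 123 to 13.54 with 4-OHT in C4 cells, whereas Msi1 mRNA in C4 went from 29.6 to 28.1 and its footprint reads from 56 to 20. Neural stem markers were high in every condition (summed level 10920 or more), while endothelial, microglial and mesenchymal markers summed to at most 1.13, 0.354 and 1.90. Markers of other cell types were present, at 416 to 1225 (astrocyte), 454 to 1074 (oligodendrocyte lineage), 55.6 to 410 (mural) and 33.4 to 74.4 (neuron).

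The 7 genes covered a wide range of mRNA levels, and Hes5 was the most abundant of them in every tet-inducible library. At E12.5 the 6 tet-inducible libraries had 524, 757 and 829 normalized RPKM of Hes5 mRNA (lowest, median and highest), and at E13.5 the values were 624 in KH2, 647 in MSI1 and 772 in MSI1 with Dox. The floxed lines were at 25.6 (C1), 27.1 (C1 with 4-OHT), 21.8 (C4) and 32.5 (C4 with 4-OHT). Every floxed library was thus far below every tet-inducible library, with no overlap, and Hes5 moved from between the 97.7 and the 99.1 percentile of detected genes to between the 49.7 and the 56.8 percentile. The share of all genes without overlap between these sets is not given, here or for the genes below. Between untreated E12.5 cells of these sets, edgeR called 66.3% of genes tested at an adjusted p under 0.05.

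**Figure D1:**
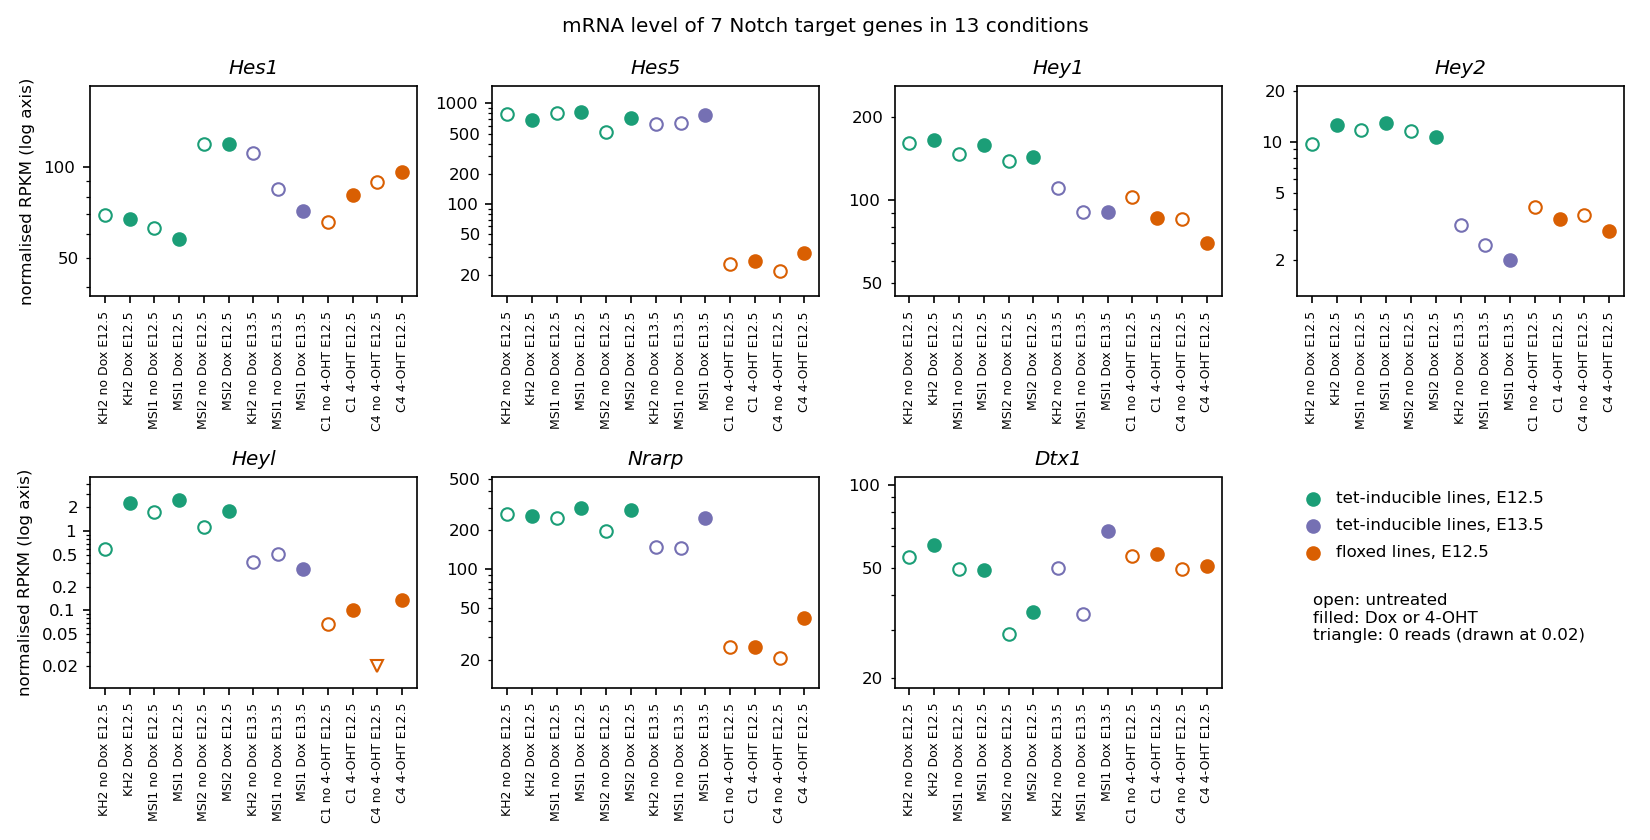
mRNA level of the 7 genes in 13 conditions, in normalized RPKM on a log axis that differs by panel, with 1 point per condition. Points are green for tet-inducible lines at E12.5, purple at E13.5 and orange for floxed lines, open without and filled with Dox or 4-OHT, and a triangle drawn at 0.02 marks 0 reads. Hes5 and Nrarp are low in all floxed conditions, to 21.8 to 32.5 and 20.7 to 41.9, while Hes1 and Dtx1 overlap between the sets.

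Nrarp followed the same order. Its mRNA was at 197, 262 and 299 normalized RPKM (lowest, median and highest) in the 6 tet-inducible libraries of E12.5, and at 148 (KH2), 145 (MSI1) and 251 (MSI1 with Dox) at E13.5. In the floxed lines it was at 24.9 (C1), 24.97 (C1 with 4-OHT), 20.7 (C4) and 41.9 (C4 with 4-OHT). The sets of lines did not overlap for Nrarp, and within the floxed lines C4 with 4-OHT stood highest.

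Hes1 mRNA showed no such split between the lines. It was at 58.0, 68.4 and 120 normalized RPKM (lowest, median and highest) in the E12.5 tet-inducible libraries, with both MSI2 libraries at 120 and the other four at 69.6 or less. At E13.5 it was at 111 (KH2), 84.7 (MSI1) and 71.7 (MSI1 with Dox), and in the floxed lines at 65.6 (C1), 81.0 (C1 with 4-OHT), 89.1 (C4) and 96.2 (C4 with 4-OHT).

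Among the Hey repressors, Hey1 was abundant, Hey2 low and Heyl near the limit of detection. Hey1 mRNA ranged from 139 to 165 normalized RPKM in the 6 tet-inducible libraries of E12.5, from 90.1 to 111 at E13.5, and between 70.1 and 103 in the floxed lines. Hey2 ranged from 9.63 to 12.96, from 2.001 to 3.22 and from 2.96 to 4.11 in the same sets. For both genes the E12.5 tet-inducible libraries lay above all others, and the E13.5 and floxed libraries overlapped. Heyl rested on 6 to 39 reads at E12.5 in the tet-inducible lines, 9 to 24 at E13.5 and 0 to 6 in the floxed lines. Untreated C4 cells had 0 Heyl reads in a library of 45750593 counts, and a count of 0 allows up to 3 reads, the number found in C1.

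Dtx1 overlapped between all sets, at 28.9 to 60.4 normalized RPKM in the E12.5 tet-inducible lines, 34.3 to 67.9 at E13.5 and 49.5 to 56.1 in the floxed lines. The untreated MSI2 cells were lowest (28.9) and MSI1 cells with Dox at E13.5 highest (67.9). In the order of medians over the E12.5 tet-inducible libraries, Hes5 (757) stood above Nrarp (262), Hey1 (152), Hes1 (68.4), Dtx1 (49.4), Hey2 (11.7) and Heyl (1.77), and of these neighbors the ranges of Hes1 and Dtx1 overlapped.

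To compare lines without any scaling between libraries, Hes5 was divided by Hes1 within each library, per kb. The mRNA ratio was 11.4 (KH2), 10.3 (KH2 with Dox), 12.9 (MSI1), 14.3 (MSI1 with Dox), 4.38 (MSI2) and 6.04 (MSI2 with Dox) at E12.5. At E13.5 it was 5.602 (KH2), 7.63 (MSI1) and 10.8 (MSI1 with Dox). In the floxed lines the ratio was below 1 throughout, at 0.390 (C1), 0.334 (C1 with 4-OHT), 0.245 (C4) and 0.338 (C4 with 4-OHT). Footprints gave the same separation. Their ratio was 19.2 (KH2), 8.98 (KH2 with Dox), 16.7 (MSI1) and 19.6 (MSI1 with Dox), against 0.160 (C1), 0.147 (C1 with 4-OHT), 0.285 (C4) and 0.477 (C4 with 4-OHT). The footprint ratio of MSI1 with Dox had a 95% interval from 10.6 to 36.3, which covers counting error only.

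**Figure D2:**
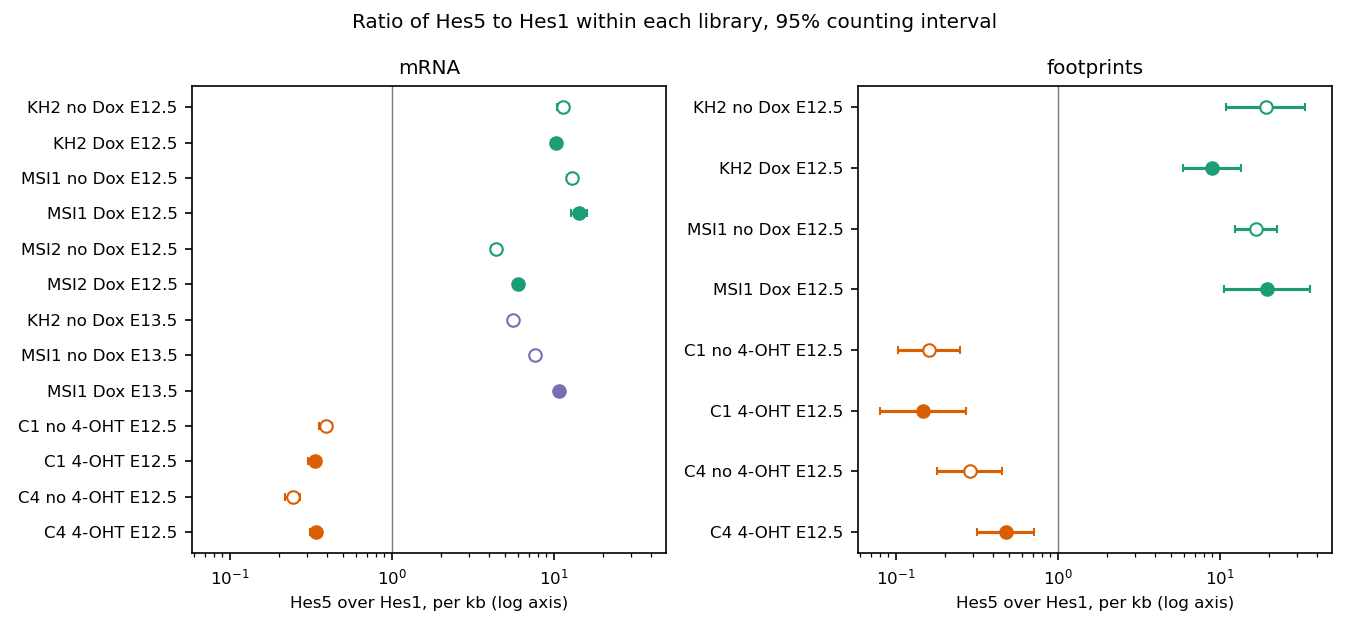
Ratio of Hes5 to Hes1 per kilobase within each library, on a log axis, for mRNA (left, 13 conditions) and footprints (right, 8 libraries). Bars are 95% counting intervals, colors and fills are as in the plot of mRNA levels, and the line marks a ratio of 1, with every tet-inducible library above it and every floxed library below it.

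Floxed lines were then tested against tet-inducible lines in untreated E12.5 cells, with lines as repeats (C1 and C4 against KH2, MSI1 and MSI2). Genotype, culture and the 48 h or 72 h time point all differed between the groups and cannot be told apart. Many genes differed. In edgeR's quasi-likelihood test with Benjamini-Hochberg adjustment, 8093 of 12211 genes (66.3%) had an adjusted p under 0.05. Of the 6 Notch targets that passed the filter on low counts, 4 were called, all lower in the floxed lines, which is close to that background share, and Heyl was removed by the filter. Hes5 and Nrarp had the largest differences of the 6. The 6 genes had a median log2 difference of -1.08, against 0.0046 over all genes tested.

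Hes5 averaged 708 ± 159 normalized RPKM (SD, n = 3 lines) in the tet-inducible and 23.7 ± 2.71 (SD, n = 2) in the floxed lines, a log2 difference of -4.90 (SE 0.25, edgeR adjusted p = 2.59e-05). Nrarp averaged 238 ± 36.3 and 22.8 ± 2.96, a log2 difference of -3.39 (SE 0.18, edgeR adjusted p = 3.24e-05). Both kept their direction in deposited RPKM, at -3.80 and -2.30, and both were lower in 2 of 2 floxed lines. In bulk cultures, fewer cells making an mRNA and less of it per cell cannot be told apart.

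Hey2 was lower in the floxed lines by a log2 difference of -1.50 (SE 0.20, edgeR adjusted p = 0.000805). Hey1 was lower by -0.67 (SE 0.12, edgeR adjusted p = 0.00296), a direction that turned to +0.41 in deposited RPKM. Hes1 had a difference of -0.12 (SE 0.30, edgeR adjusted p = 0.736) and Dtx1 of 0.24 (SE 0.26, edgeR adjusted p = 0.443). In deposited RPKM the difference was 1.00 for Hes1, the opposite sign, and 1.37 for Dtx1. In the treated cells of the same lines, which are separate libraries, the test gave -4.65 for Hes5, -3.07 for Nrarp, -1.90 for Hey2 and -0.99 for Hey1, all with an edgeR adjusted p of 0.0011 or less. There, and also without the filter on low counts, Heyl was called as the fifth target, on 0 to 6 reads in each floxed library. The share of all genes called in those fits is not given here.

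Footprints of Hes5 and Nrarp were lower in the floxed lines as well. Hes5 footprints were at 282 (KH2), 247 (KH2 with Dox), 333 (MSI1) and 300 (MSI1 with Dox) normalized RPKM, against 4.88 (C1), 7.18 (C1 with 4-OHT), 16.2 (C4) and 27.7 (C4 with 4-OHT). Nrarp footprints were at 36.2, 50.1, 67.3 and 44.5 in the same order of tet-inducible libraries, and at 1.94, 2.86, 2.25 and 2.70 in the floxed ones, where they rested on 2 to 6 reads. Neither gene's groups overlapped. Among untreated libraries edgeR called 3829 of 12097 genes (31.7%) in footprints, and 4 of the 6 Notch targets tested. Hes5 had a log2 difference of -5.23 (SE 0.44, adjusted p = 1.65e-05) and Nrarp of -4.74 (SE 0.64, adjusted p = 0.000238).

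Dtx1 footprints were also lower in the floxed lines, with a log2 difference of -1.56 (SE 0.41, edgeR adjusted p = 0.0134). They were at 15.8 (KH2), 13.8 (KH2 with Dox), 10.5 (MSI1) and 11.3 (MSI1 with Dox) normalized RPKM, against 4.39 (C1), 6.28 (C1 with 4-OHT), 4.95 (C4) and 7.65 (C4 with 4-OHT), without overlap. Hes1 footprints were higher, with a difference of 1.18 (SE 0.40, edgeR adjusted p = 0.0411). Hes1 was at 14.7, 27.5, 19.9 and 15.3 in the tet-inducible and at 30.4, 48.8, 56.8 and 58.1 in the floxed libraries, in the same order and without overlap. Without the KH2 library dominated by Hes7, Hes5 and Nrarp were called and Dtx1 (-1.28, adjusted p = 0.116) and Hes1 (1.01, adjusted p = 0.158) were not. Hey1 and Hey2 footprints differed by -0.25 and -0.41, with edgeR adjusted p = 0.523 and 0.768.

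Across the rest of the Notch pathway, the ligands moved both ways in the same mRNA comparison, in which 66.3% of all genes were called. Of 6 ligands tested, Dll1 (log2 difference -3.15), Dll3 (-2.01) and Dll4 (-1.76) were lower in the floxed lines, and Dlk1 (2.66), Jag2 (2.25) and Jag1 (1.09) were higher. Of 4 receptors, Notch3 (-2.33) and Notch1 (-1.66) were lower and the others were not called. Among 10 tested genes of receptor processing and glycosylation, 6 were higher and 4 lower, and 2 of these 4 turned in deposited RPKM. The largest difference was that of Mfng (-4.31), which encodes a sugar transferase that modifies Notch. In the nuclear complex and corepressor list, 7 of 11 were called, close to the 66.3% of all genes called in either direction. All 7 were lower and 0 higher, among them Tle2 (-2.19), Rbpj (-1.33), Maml2 (-1.31) and Tle4 (-1.03). In deposited RPKM 4 of the 7 turned, Tle4 to 0.05, and the other ligands, receptors and nuclear genes named here kept their sign.

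Of 7 regulators, Dtx4 (0.59) was higher and Numbl (-0.85) lower, and Numbl turned to 0.24 in deposited RPKM. Hes6, a Hes family member that acts against Hes1, was lower (-2.13), as was the proneural gene Neurog2 (-2.81). Markers of other cell types moved with this comparison, in which 66.3% of all genes were called. Astrocyte markers were higher for 3 of 4 genes, Gfap by 6.40, S100b by 2.78 and Aqp4 by 1.99, and the list summed to 416 to 878 normalized RPKM in the E12.5 tet-inducible and 855 to 1225 in the floxed libraries. The mural list summed to 55.6 to 94.8 and 164 to 410, with Acta2 higher by 3.94 and Cspg4 lower (-1.19) of 2 tested. The oligodendrocyte lineage list summed to 454 to 656 and 795 to 1074, with Olig2 higher by 0.52 of 3 tested. Neuron markers summed to 33.4 to 54.5 and 57.3 to 74.4, with 3 of 5 genes higher and Tubb3 lower (-0.55, which turned to 0.535 in deposited RPKM). Kdr, the 1 endothelial marker tested, was higher by 1.35. Among 5 neural stem markers, Nes was higher (1.44) and Prom1 (-1.25) and Sox2 (-1.10) lower. The part of these cell markers in the Notch target differences was not tested.

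At E13.5, untreated KH2 and MSI1 cells differed from E12.5 cells of the same lines in each Notch target tested. In edgeR's test with line as a block, 6039 of 11893 genes (50.8%) were called, and 6 of 6 targets. Hey2 was lower at E13.5 by a log2 difference of -1.96 (SE 0.27, edgeR adjusted p = 0.000217), from 9.63 (KH2) and 11.8 (MSI1) to 3.22 and 2.44 normalized RPKM. Nrarp was lower by -0.83 (SE 0.11, edgeR adjusted p = 0.00017), but turned to 0.15 in deposited RPKM. Hey1 (-0.63), Hes5 (-0.35) and Dtx1 (-0.35) were also lower, with edgeR adjusted p = 0.0011, 0.015 and 0.0428, and also turned in deposited RPKM, to 0.35, 0.63 and 0.63. The call of Dtx1 was lost without the low count filter, with DESeq2, without the line block and with technical repeat A alone (adjusted p 0.0523 to 0.188), and its difference was -0.16 without MSI1 and -0.57 without KH2.

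Hes1 was higher at E13.5 by 0.54 (SE 0.12, edgeR adjusted p = 0.0039), and in deposited RPKM by 1.51. It went from 69.6 to 111 in KH2 and from 62.7 to 84.7 in MSI1. Hes1 and Hey2 are therefore the members whose direction between the stages did not depend on the scaling. The Hes5 to Hes1 ratio, which needs no scaling, was lower at E13.5 in both lines. Technical repeats of the untreated MSI1 cells of E13.5 differed by 0.08 or less on the log2 scale for Hes1, Hes5, Hey1, Nrarp and Dtx1, by 0.63 for Hey2 (50 and 71 reads) and by 0.14 for Heyl (7 and 17 reads).

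Of the wider pathway between the stages, 1 of 6 ligands, 1 of 4 receptors, 2 of 10 processing genes, 4 of 11 nuclear genes and 1 of 7 regulators were higher, and 2, 0, 4, 2 and 2 were lower. Across all genes tested, 50.8% were called between the stages, in either direction. Dlk1 (-2.73) and Neurog2 (-4.14) were lower and Jag1 (0.72) and Notch2 (0.74) higher, in the same direction in deposited RPKM. Dll1 (-0.54), Mfng (-0.67) and Hes6 (-0.74) were called lower but turned to 0.43, 0.31 and 0.24. Of 4 astrocyte markers, Gfap was higher by 3.75 and Aqp4 by 0.48, and Aldh1l1 was lower (-0.33, which turned to 0.64). The astrocyte list summed to 641 to 811 normalized RPKM at E13.5, inside the range of E12.5. Of 4 neuron markers, Snap25 was higher by 1.26, and Tubb3 (0.285), Dcx (0.58) and Rbfox3 (-0.997) were not called. Among 5 neural stem markers, Nes was higher by 1.19 and Sox2 (-0.40) and Vim (-0.33) lower, and Pdgfra, of 3 oligodendrocyte lineage markers, was lower (-0.56). Sox2, Vim and Pdgfra turned in deposited RPKM, to 0.57, 0.64 and 0.42. The part of these markers was not tested, and stage, culture and sequencing run cannot be told apart.

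The question of the Dox experiment is what extra Msi1 does to these mRNAs. Over both stages together, Nrarp and Dtx1 mRNA were higher with Dox in MSI1 cells, and the other targets were not called. In edgeR's test with stage as a block, 430 of 11938 genes (3.6%) were called, and 2 of 7 targets, all of which passed the filter. Nrarp had a log2 change of 0.53 (SE 0.16, edgeR adjusted p = 0.0286) and Dtx1 of 0.51 (SE 0.16, edgeR adjusted p = 0.0421). The changes of the other 5 lay between -0.18 (Hes1) and 0.15 (Hes5), with adjusted p of 0.699 or more. The median over the 7 was 0.05, against -0.0052 over all genes tested.

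These calls rested on the E13.5 pair. KH2 cells with Dox were not sequenced at E13.5, so Dox itself and extra Msi1 cannot be told apart there. Dtx1 went from 34.3 to 67.9 normalized RPKM with Dox at E13.5, and from 49.5 to 49.4 at E12.5. Nrarp was at 145 without and 251 with Dox at the later stage, and at 251 and 299 at the earlier. Without the E12.5 pair the changes were 0.98 and 0.78, and without the E13.5 pair 0.02 and 0.28, for Dtx1 and Nrarp respectively. DESeq2 called neither, with 104 genes called in all. In the wider pathway Jag2 (1.07), Dtx2 (0.60) and Hes6 (0.67) were called higher, of 6 ligands, 7 regulators and 1 other Hes gene tested, and 0 pathway genes were lower. Gfap (-0.77), Snap25 (-1.49) and Pdgfra (-0.54) were lower among the cell type markers, in 1 gene of each list, and their part was not tested.

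KH2 cells took Dox without a transgene, and so give the response to Dox alone, at E12.5 only. The difference of the Dox effect in the 3 transgenic pairs (MSI1 at both stages and MSI2) from that in KH2 was tested in 12167 genes, of which edgeR called 0 (0%), DESeq2 likewise 0, edgeR without the low count filter 20, and 584 had an unadjusted p under 0.05. Of the Notch targets, Nrarp (0.59, SE 0.22) and Hes5 (0.46, SE 0.20) were among those with an unadjusted p under 0.05, at 0.0197 and 0.0383, in edgeR, and both had an adjusted p of 0.971. Heyl had a difference of -1.73 (SE 0.86). The single KH2 pair sets the control in this fit. It is from E12.5, so the E13.5 MSI1 pair has no KH2 pair of its own stage.

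The treated and untreated libraries of each pair were also compared 1 by 1, as changes relative to the median gene of that pair, for genes with more than 5 reads in both libraries. These comparisons have no repeats, and their 95% intervals cover counting error only. A change of at least 1.5-fold was reached by 6.03% of genes in KH2 with Dox, 10.4% in MSI1 at E12.5, 9.36% in MSI2, 16% in MSI1 at E13.5, 7.65% in C1 and 13.1% in C4. Of the Notch targets it was reached by 1, 0, 1, 3, 0 and 1 in the same order. In KH2, MSI2 and MSI1 at E13.5 this included Heyl, with 6 and 39, 12 and 23, and 24 and 13 reads without and with Dox.

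**Figure D3:**
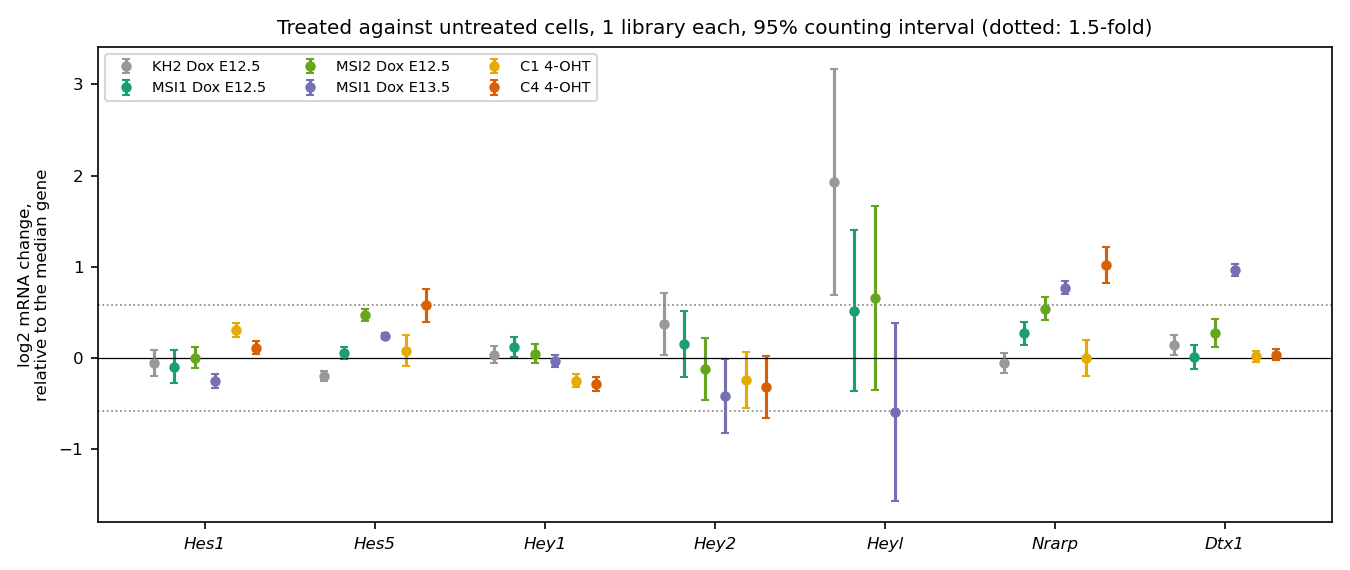
log2 change of mRNA in treated against untreated cells, relative to the median gene of each pair, for 6 pairs with 1 library per condition. Bars are 95% counting intervals and dotted lines mark 1.5-fold. Nrarp in C4 (1.02) and in MSI1 at E13.5 (0.77) and Dtx1 in MSI1 at E13.5 (0.97) lie above the upper line with intervals clear of it, as does Heyl in KH2 (1.93), and Heyl has the widest bars.

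Nrarp mRNA changed with Dox by a log2 value of -0.05 in KH2, 0.27 in MSI1 and 0.54 in MSI2 at E12.5, and by 0.77 in MSI1 at E13.5. The interval of KH2, from -0.16 to 0.06, lay below those of the 3 transgenic pairs, the lowest of which began at 0.14. Hes5 changed by -0.20 in KH2 (-0.26 to -0.14), 0.05 in MSI1 (-0.01 to 0.12) and 0.47 in MSI2 (0.40 to 0.54) at E12.5, and by 0.25 in MSI1 at E13.5 (0.21 to 0.28). Dtx1 changed by 0.14, 0.01 and 0.28 in the E12.5 pairs and by 0.97 at E13.5. Hes1 and Hey1 stayed between -0.25 and 0.12 in all 4 pairs. These 3 E12.5 pairs and the E13.5 pair differ from one another by culture as well as by transgene or stage. The spread between cultures given the same treatment was not measured.

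The C4 line, with Cre, and the C1 line, without, were compared to separate loss of Msi from 4-OHT itself. Of the targets, Nrarp differed most between the lines. In C4 it went from 20.7 to 41.9 normalized RPKM (288 and 733 reads), a change of 1.02 relative to the median gene (0.82 to 1.21), and in C1 from 24.9 to 24.97 (435 and 385 reads), a change of 0.01 (-0.19 to 0.20). The difference between the lines was 1.01 on the log2 scale (0.73 to 1.29), at the 98.05 percentile of 13035 genes. Hes5 changed by 0.58 in C4 (0.40 to 0.76) and by 0.08 in C1 (-0.09 to 0.25), a difference of 0.50 (0.25 to 0.74) at the 93.1 percentile. With 4-OHT both genes nevertheless stayed far below the tet-inducible lines.

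The log2 changes in C1 and C4 were 0.31 and 0.11 (Hes1), -0.25 and -0.28 (Hey1), -0.24 and -0.32 (Hey2) and 0.02 and 0.04 (Dtx1). Signs matched between the lines for these genes, as they did for Hes5 and Nrarp. The intervals of Hey2 and Dtx1 included 0 in both lines, and those of Hes5 and Nrarp did so in C1. When the lines served as repeats for the 4-OHT response they share, edgeR called 639 of 11626 genes (5.5%) and 0 of 6 targets. Hey1 (-0.27), Hes1 (0.20) and Nrarp (0.51) were among 2281 genes with an unadjusted value under 0.05. For Nrarp this value lay between 0.01 in C1 and 1.02 in C4, so it does not describe a response shared by both lines. Without the filter on low counts Hey1 and Nrarp passed, at edgeR adjusted p = 0.0327 and 0.0464. DESeq2 called 0 of 6. In the wider pathway 3 genes were called higher and 1 lower. Jag1 (0.56), Lfng (0.48) and Maml2 (0.39) were higher and Numbl (-0.70) lower. Jag1 went from 15.2 to 20.85 normalized RPKM in C1 and from 21.7 to 34.5 in C4. The astrocyte marker Aqp4 (-0.53) and the mural marker Acta2 (-1.04) were lower, and their part was not tested.

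Ribo-Seq asked whether translation of these mRNAs changed with Dox or 4-OHT. No Notch target passed 2-fold in footprints, relative to the median gene, in any of the 4 pairs. Of all genes, 6.07% did so in KH2 and 7.69% in MSI1 with Dox, and 10.4% in C1 and 12.53% in C4 with 4-OHT. In each pair, 4 or 5 targets had more than 5 footprint reads in both libraries, while Heyl did in none and Hey2 in C4 only. In translational efficiency (TE, the footprint RPKM over the mRNA RPKM), 0 targets passed 2-fold in each pair, against 6.89%, 6.55%, 9.44% and 10.9% of all genes in the same order. Hes1 footprints changed by 0.70 in C1 (0.39 to 1.01) and 0.05 in C4 (-0.32 to 0.43), a difference of -0.65 (-1.13 to -0.16). The intervals of Hes5 and Dtx1 reached past 2-fold in both floxed pairs, as did that of Hey2 in C4 and those of Hes1 and Nrarp in both tet-inducible pairs, so for these a 2-fold change could not be told from none.

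Nrarp TE changed by -0.91 with Dox in MSI1 cells (-1.77 to -0.04, 66 and 13 footprint reads). In KH2 cells it changed by 0.48 (-0.53 to 1.49, 13 and 20 footprint reads), and the untreated KH2 library is the one dominated by Hes7. The difference, -1.39 (-2.72 to -0.05), had the single interval of a TE difference between lines that did not include 0. Hes1 TE changed by -0.32 in MSI1 and 0.91 in KH2, a difference of -1.23 (-2.60 to 0.13). Hes5, with 128 or more footprint reads in the tet-inducible libraries, changed by -0.25 in MSI1 (-0.53 to 0.04) and -0.04 in KH2 (-0.37 to 0.30), a difference of -0.21 (-0.65 to 0.23). Of the floxed lines, C1 gave 0.41 for Hes1 (0.09 to 0.74) and C4 -0.03 (-0.41 to 0.35).

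TE also placed the targets among all mRNAs of the same cells. Nrarp stood low in each of the 5 libraries where it had more than 5 footprint reads, at log2 TE of -1.69 (KH2), -1.21 (KH2 with Dox), -0.73 (MSI1), -1.62 (MSI1 with Dox) and -2.59 (C1) relative to the median gene, which is between the 2.003 and the 18.2 percentile. Hes5 stood between -0.34 and -0.11 in the 4 tet-inducible libraries. In the floxed lines it parted by line, at -1.30 (C1) and -0.82 (C1 with 4-OHT) against 0.67 (C4) and 0.91 (C4 with 4-OHT), on 11 to 30 footprint reads. Hey1 lay between -0.80 and 0.03 in all 8 libraries. Hey2 had more than 5 footprint reads in 5 libraries, and was highest in C4 with 4-OHT, at 1.61 (0.64 to 2.58, 9 footprint reads).

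**Figure D4:**
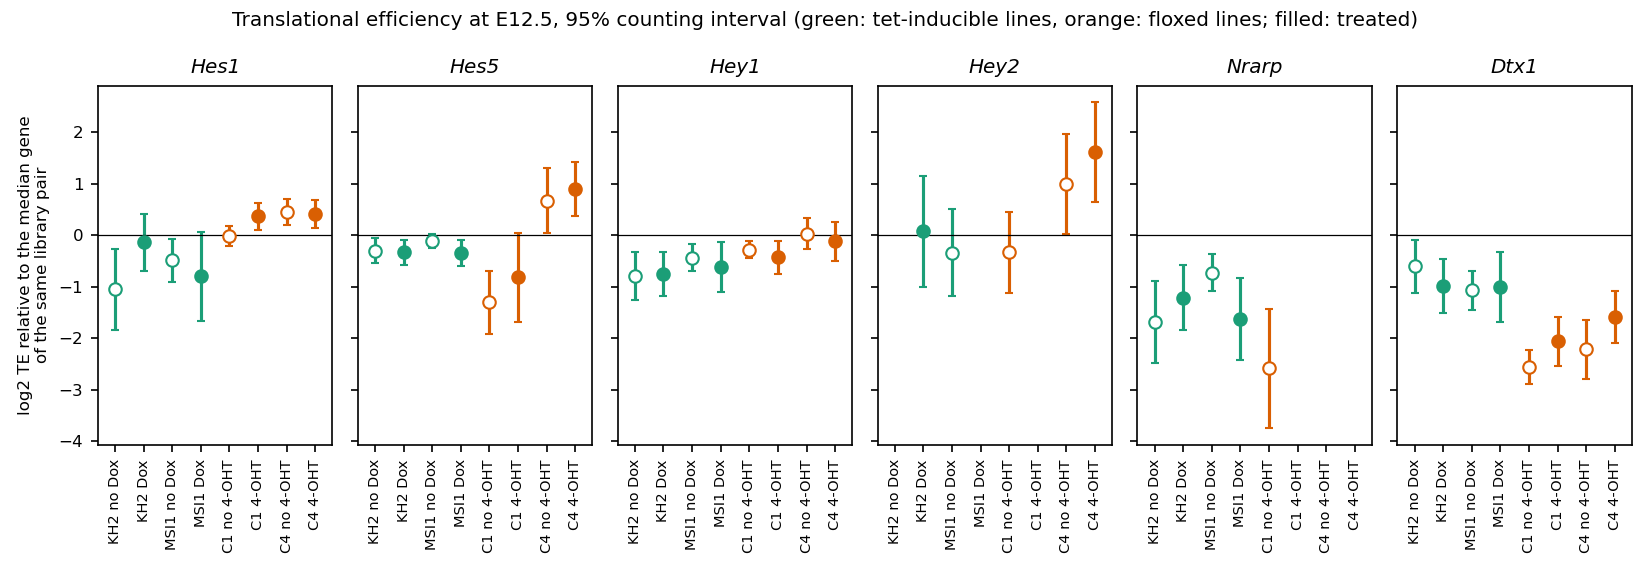
log2 TE of 6 targets relative to the median gene of the same library pair, at E12.5, with 95% counting intervals and only where a gene had more than 5 reads in both assays. Tet-inducible lines are green and floxed lines orange, open without and filled with treatment. Dtx1 lies between -2.57 and -1.59 in the floxed and between -1.07 and -0.60 in the tet-inducible libraries, and Hes5 is below 0 in C1 and above 0 in C4.

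Dtx1 TE was lower in the floxed lines. It stood at -0.60 (KH2), -0.98 (KH2 with Dox), -1.07 (MSI1) and -1.005 (MSI1 with Dox), against -2.57 (C1), -2.06 (C1 with 4-OHT), -2.22 (C4) and -1.59 (C4 with 4-OHT), so that the groups did not overlap. In a single edgeR model of both assays in untreated cells, with assay by line type as the tested term, 1198 of 12451 genes (9.62%) were called and 1 of 6 targets. The difference for Dtx1 was -1.52 (SE 0.39, edgeR adjusted p = 0.00212). Without the KH2 libraries it was -1.30 (adjusted p = 0.187, with 468 genes called), and in the treated libraries of the same lines -0.78 (adjusted p = 0.293).

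The other targets gave 0.96 (Hes1), -0.18 (Hes5), 0.50 (Hey1), 1.10 (Hey2) and -1.31 (Nrarp), with edgeR adjusted p of 0.11 or more. Hes1 was called without C1 (1.18, adjusted p = 0.0349) and Hes5 without C4 (-1.08, adjusted p = 0.0242), whereas Hes5 was at 0.92 without C1. The median of the 6 was 0.16, against 0.04 over all genes tested, of which 9.62% were called. In the wider pathway 2 of 5 ligands, 2 of 4 receptors, 1 of 12 processing genes, 4 of 11 nuclear genes and 1 of 7 regulators had lower TE in the floxed lines, and 1 nuclear gene had higher TE. Hes7, the gene that dominated the untreated KH2 footprint library, was also called, but it had 15 mRNA reads in those cells. Of the cell markers, 2 of 2 mural and 2 of 3 oligodendrocyte lineage genes had lower TE and 1 of 4 astrocyte and 1 of 5 neuron genes higher. Of 5 neural stem markers, Fabp7 (1.39) and Vim (1.61) had higher and Nes (-0.88) and Sox2 (-0.92) lower TE. The part of these markers was not tested.

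The genes whose mRNA followed each target most closely over the 13 conditions were looked up by Pearson's r of log2(deposited RPKM + 0.5), over 10849 genes whose RPKM averaged 1 or more. These conditions fall into 3 sets of libraries, so r mostly describes differences between the sets. Hes5 was followed by Mfng (r = 0.997), Tyro3 (0.990) and Btg2 (0.989), and Mfng was also the closest on the normalized scale, with the same r. Nrarp was followed by Lpin1 (0.981), Hes5 (0.980) and Btg2 (0.979), and Hes5 with Nrarp had r = 0.981 on the normalized scale. Hes1 was followed by Capza1 (0.973), Siah2 (0.973) and Calu (0.971), Hey2 by Prelid2 (0.933), Sdr39u1 (0.921) and P4ha1 (0.920), and Dtx1 by Mllt6 (0.976), Slc41a1 (0.975) and Bad (0.975). The closest gene was the same on both scales for Hes1, Hes5 and Hey2. On the normalized scale it was Sec14l2 (0.967) for Hey1, Furin (0.895) for Dtx1 and Srl (0.992) for Nrarp, whose 3 closest genes all differed between the scales. As deposited, Hey1 was followed by ENSMUSG00000052192 (0.916), Gpx4 (0.891) and Plin2 (0.888). Hes5 and Hes1 had r = -0.429 as deposited and -0.058 when normalized.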

How the data were processed

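RNA-Seq of poly(A)-selected RNA (14 libraries) and Ribo-Seq (8) of mouse NSCs were used. The authors deposited a read count per Ensembl gene, not normalized, and an RPKM computed over coding exons and a constant number of reads per library. Per the labels, Bowtie and TopHat were used with mm9, and their versions and roles are not given in the sources used here. Groups came from the labels. Counts of the technical repeats were summed, and their deposited RPKM were averaged.

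Tests used edgeR (4.0.16) quasi-likelihood fits on counts with TMM, genes reaching 1 CPM in 2 or more libraries, and Benjamini-Hochberg adjustment over all genes (threshold 0.05). Normalized RPKM uses counts, the authors' lengths and TMM-scaled library sizes. For the 7 genes the RNA-Seq length was the footprint length less 40 nt per exon. In the fits of Dox over both stages and of TE, the prior degrees of freedom were infinite, so a gene's own spread did not widen its error. P-values rest on lines or stages as repeats. Pairs with 1 library per condition have no test, and use log2 RPKM ratios less the median gene, with 95% delta-method intervals that cover counting error only.

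The 7 genes and all lists were chosen with earlier results of these data known. Named beside them are the targeted genes, Jag1, Notch1 and Rbpj, and up to 4 called genes per list. Genes of like pattern are the 3 highest r per target. Marker genes, and genes named beyond these, were chosen after their values were seen. The fits were tested on simulated counts with 200 genes changed 4-fold, and called 189 (TE) to 200 of them. The simulation used the same spread for every fit, so it does not show how well smaller changes are called in these data. Alternatives were other size factors, filters, limits, blocks, DESeq2 (1.42.0), each technical repeat alone and leaving out lines. Added after seeing the data were deposited RPKM for the line and stage comparisons, and footprint counts, with and without KH2, and treated libraries for the line comparisons. R 4.3.3, Python 3.11.15, numpy 2.4.6, pandas 2.3.3 and matplotlib 3.10.9 were used.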

Additional observations from a re-analysis of the deposited data

Results flagged for a closer look

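The mRNA of Hes5 moved in opposite directions with Dox, higher in MSI2 cells at E12.5 (0.47 relative to the median gene, log2) and in MSI1 cells at E13.5 (0.25), and lower in KH2 cells (-0.20), with intervals that exclude 0 in each pair. Hey2 mRNA was higher in KH2 cells (0.38, 102 and 225 reads without and with Dox). It was lower in MSI1 cells at E13.5 (-0.42, 121 and 82 reads). The untreated value of this MSI1 pair is the mean RPKM of the technical repeats, which differed by 0.63 (log2) for Hey2. With their counts summed, the edgeR change at E13.5 was -0.29, and both values are smaller than that difference between repeats. Hes5 and Hey2 were picked out because the pairs moved in opposite directions. With 1 library per condition, these single differences were not tested. The fit of all transgenic pairs against KH2 gave an adjusted p of 0.971 for both genes.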

How the results depend on the processing

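Depth limited the footprint values, since Nrarp had 2 to 6 reads and Hes5 11 to 30 in each floxed library. Line, stage or pair was a block in 5 of the 6 tested comparisons, and replicate numbers gave no further block, since compared groups share number 1 only. Leaving out the KH2 pair leaves no control for the transgene comparison. Leaving out a stage or line in the Dox (MSI1), 4-OHT and stage comparisons gave values with no test.

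For Dox in MSI1 cells, 1 target was called without the low count filter and with technical repeat A alone, 0 with DESeq2 (104 genes) and 0 without the stage block (0 genes in edgeR, 58 with an unadjusted p under 0.05). Hey2 turned to 0.067 and Heyl to 0.27 without the block, Heyl to 0.14 with repeat A and Hey2 to 0.051 with repeat B. For the transgene comparison, 20 genes were called without the filter and 8 to 20 when a pair was left out, with 0 targets in each. Hey1 then ranged from -0.021 to 0.049, Hes1 from -0.125 to 0.01 and Dtx1 from -0.002 to 0.504, turning without MSI1 at E12.5 (Hey1) or at E13.5 (Hes1, Dtx1). For 4-OHT, 2 targets and 1254 genes were called without the filter, and 0 genes without the line block in edgeR, with 1124 at an unadjusted p under 0.05 and 514 called by DESeq2 with the block. Between stages, Dtx1 lost its call without the filter, with DESeq2, without the line block and with repeat A (adjusted p 0.0523 to 0.188). In deposited RPKM Hes5 (0.63), Hey1 (0.35), Nrarp (0.15) and Dtx1 (0.63) reversed.

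Between lines, Hes5, Nrarp, Hey2 and Hey1 were called whichever line was left out. Hes1 ranged from -0.332 (without C4) to 0.22 (without MSI2), at 0.111 without C1, and was at 0.112 in treated libraries, and Hey1 to 0.41 in deposited RPKM. In footprints, 3829 genes were called, with Hes1 at 1.18 and Dtx1 at -1.56, and without KH2 2614 genes and 2 targets, with Hes1 at 1.01 and Dtx1 at -1.28. For TE, 0 to 2 targets and 383 to 1759 genes were called when a line was left out, the fewest genes without MSI1 and KH2, and 0 targets in treated libraries. Hes5 ranged from -1.08 without C4 to 0.923 without C1, and turned to 0.61 in treated libraries. In the pairs, 2 mRNA changes of the targets passed a limit of 2-fold, 3 with more than 20 reads required and 3 with 0.5 RPKM added, against 6. Without centring on the median gene, 1 footprint and 3 TE changes passed, against 0, where the median of C1 lay at -1.44 and -1.46. The cause of these shifts was not tested.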
